A study of Oryza sativa with 51 samples.

Results

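RNA levels in rice seedlings under severe drought were compared with those under moderate drought. The severe group held 3 libraries from plants whose soil had dried slowly to a relative water content of about 10%, and the moderate group 3 libraries from plants at about 20%. All plants were Zhonghua11, a japonica rice line with no mutation named in the labels, were at the 4-leaf stage and gave total RNA from which mRNA was sequenced. These 6 libraries are 6 of the 51 samples in the series. The 3 libraries from plants under normal water are given where the unstressed level of a gene helps to place the others. Per the file headers each library holds a TPM value per gene (transcripts per 1000000 transcripts, scaled to the same sum in every library). Of 55986 genes listed in every table, the 19889 with at least 1 TPM in at least 3 of the 6 libraries were tested. The labels name neither the organs harvested nor separate plants behind the replicates, so each p reflects how these samples scatter, whatever the source of that scatter.

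Drying soil raises the level of abscisic acid (ABA), a hormone that closes stomata and switches on protective genes. ABA binds PYL receptors, which then block clade A protein phosphatases 2C (PP2C). This frees SnRK2 kinases, called SAPK in rice, to activate bZIP transcription factors that drive genes for dehydrins and other late embryogenesis abundant (LEA) proteins. Prolonged drought also brings leaf senescence, in which chlorophyll is broken down and nitrogen and carbon are moved out of the leaf. The comparison asks how far these programmes differ between the stronger and the weaker drought.

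The 3 severe libraries were not alike. Across the 19889 genes, severe replicates 1 and 2 correlated with each other at 0.992 (Pearson's r of log2(TPM + 1), across genes) and with moderate libraries at 0.985 to 0.992, while moderate libraries correlated among themselves at 0.988 to 0.992. Severe replicate 3 correlated with severe replicates 1 and 2 at 0.951 and 0.939 and with moderate libraries at 0.931 to 0.939. The 100 genes with the highest TPM took 21.8% of the total in severe replicate 3, against 25.7% to 26.4% in the other severe libraries and 26.4% to 27.2% in moderate libraries. The tables imply 9.06 to 9.48 Gb of aligned bases per severe library and 9.23 to 10.4 Gb per moderate library, so severe replicate 3, at 9.41 Gb, was neither the deepest nor the shallowest. In severe replicates 1, 2 and 3, 19734, 19702 and 20012 genes reached 1 TPM, against 19593 to 19812 in moderate libraries. Because this library stands apart, results below are given by replicate.

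Markers of other organs and of infection were read from separate lists. The leaf genes CAB1R and RCA had at least 3997 and 929 TPM in every severe and moderate library. Of 5 root markers, the iron transporter gene IRT1, the silicon exporter gene Lsi2 and the nitrate transporter gene NRT2.1 stayed under 1 TPM in all 6 libraries. The silicon channel gene Lsi1 had 12.8, 15.1 and 21.7 TPM in severe libraries and 13.1, 12.8 and 11.1 TPM in moderate libraries. The summed TPM of the root list was 15.7, 17.6 and 23.3 in severe and 15.6, 15.0 and 14.0 in moderate libraries. Both meristem markers, OSH1 among them, were listed at 0 throughout. The pathogen response list summed to 481, 748 and 342 TPM in severe and 329, 399 and 679 TPM in moderate libraries, and its most abundant gene PBZ1, a defence gene induced by probenazole, had 323, 558 and 172 TPM in severe libraries and 225, 295 and 504 TPM in moderate libraries. Severe replicate 3 was the highest of the 6 libraries for Lsi1 and the lowest for the other tested root marker, HKT2;1, a sodium transporter gene, which had 2.67, 2.37 and 1.45 TPM in severe libraries and 2.29, 1.88 and 2.53 TPM in moderate libraries. On the pathogen list it was the lowest for PBZ1 and the highest for LOC_Os07g03710, which had 0.525, 0.222 and 9.90 TPM in severe libraries and 0.0492, 0.149 and 0 TPM in moderate libraries. The part of these markers in the results was not tested. In such mixtures of cells, fewer cells of a type and less RNA per cell cannot be told apart.

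Between the groups as a whole, 2 of the 19889 genes (0.0101%) passed limma's test with a Benjamini-Hochberg adjusted p under 0.05, both higher under severe drought, and 0 (0%) were called lower. Without adjustment 1690 genes (8.50%) had p under 0.05. The smallest adjusted p beyond the 2 called genes was 0.402. The 95% interval of the difference lay within 1 of 0 on the log2 scale for 17457 genes (87.8%), and the median difference over all genes was -0.0011. All 3 severe libraries lay above all 3 moderate libraries for 1928 genes (9.69%) and below them for 2171 genes (10.9%), together 20.6% of those tested.

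Neither called gene has a symbol in the tables used here, and both overlap another gene model. LOC_Os12g37415 (chromosome 12, 22967916 to 22968353, plus strand) had 409.6, 408 and 269 TPM in severe replicates 1, 2 and 3, against 0.192, 0.195 and 0.209 TPM in moderate replicates. Its difference was 8.22 ± 0.17 (log2(TPM + 1), SE, n = 3 each, limma adjusted p 5.14e-05), and under normal water it had 0.184, 0.228 and 0.187 TPM. LOC_Os12g37410 (22967365 to 22968660, same strand) spans the whole of that model and had 192, 175 and 123.4 TPM in severe libraries, against 310.5, 290.8 and 388 TPM in moderate libraries. The severe libraries were thus all high for the inner model and all low for the outer one, for which the limma adjusted p was 0.574. How reads were shared between these nested models is not given, so their reads cannot be told apart.

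LOC_Os07g13969 (chromosome 7, 7982501 to 7983595, plus strand) had 97.8, 98.0 and 37.5 TPM in severe libraries and was listed at 0 in all 3 moderate libraries (limma adjusted p 0.0176). Under normal water it was listed at 99.3, 0 and 400.2 TPM, a range within 1 group that takes in all 6 drought libraries. LOC_Os07g13980 (7982501 to 7989283, minus strand) overlaps it and had 0.018, 6.90 and 2.66 TPM in severe libraries, against 41.3, 34.8 and 45.6 TPM in moderate libraries. The tables do not say whether reads were assigned by strand, so reads of both models cannot be told apart. The call of LOC_Os07g13969 was lost without severe replicate 1, severe replicate 2 or any 1 moderate replicate (adjusted p 0.0841 to 0.324), and also with no filter on low values, in 1 fit over all 9 libraries and with the replicate block (0.083 to 0.291). LOC_Os12g37415 passed under every alternative that tested it (limma adjusted p 5.69e-08 to 0.00994, and 1.85e-10 with limma's array weights). The fit with array weights did not converge. None of these alternatives separates the reads of LOC_Os12g37415 from those of LOC_Os12g37410. Neither called gene enters the 18695 genes whose model overlaps no other, among which 0 were called by limma and 1593 had an unadjusted p under 0.05.

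**Figure D1:**
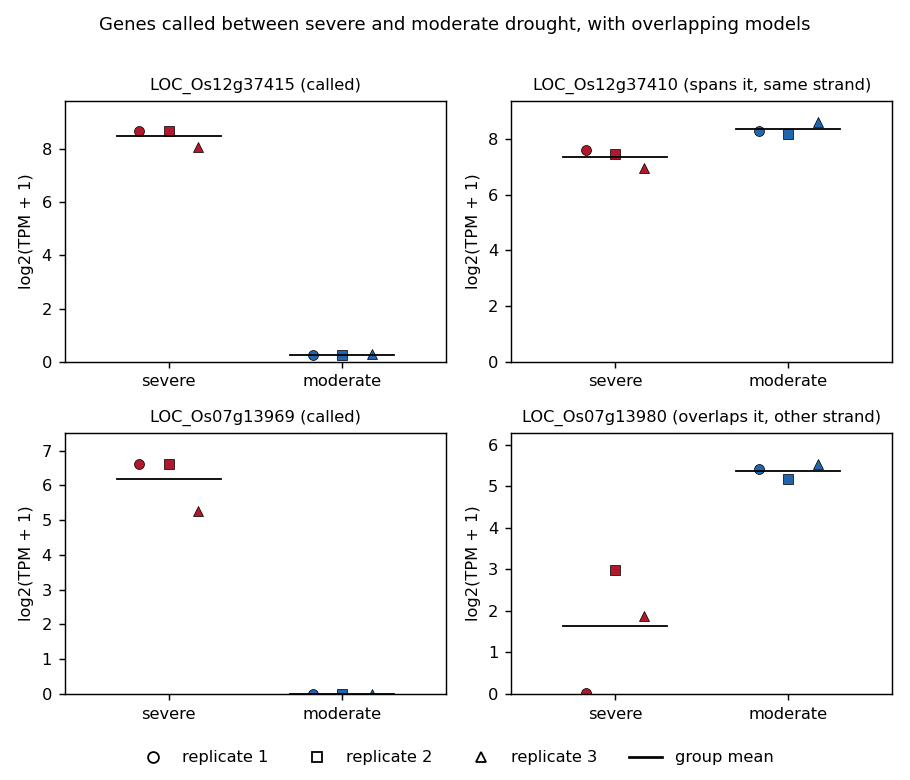
log2(TPM + 1) of both called genes (left) and of the gene models that overlap them (right) in the 3 severe and 3 moderate libraries. Points are single libraries, with 1 symbol per replicate number, and lines are group means. Each called gene is higher in all severe than in all moderate libraries, and the overlapping model is lower.

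Severe replicates 1 and 2 without replicate 3 gave 4 higher genes and 1 lower gene in limma. These 5 genes are named because they are few, after their values were seen. They include both genes above. LOC_Os03g62250 (chromosome 3) had 17.9, 19.8 and 6.57 TPM in severe libraries, against 4.98, 3.96 and 5.02 TPM in moderate libraries. The overlapping LOC_Os03g62260, on the same strand, had 8.40, 5.66 and 24.4 TPM in severe libraries and 23.1, 27.4 and 24.5 TPM in moderate libraries, so severe replicates 1 and 2 were low where the first model was high. LOC_Os10g22560 (chromosome 10) had 35.9, 33.5 and 16.7 TPM in severe libraries, against 19.5, 19.4 and 19.8 TPM in moderate libraries, with replicate 3 below the moderate range and the other severe replicates above it. LOC_Os08g02210 (chromosome 8) had 67.2, 74.3 and 59.7 TPM in severe libraries, against 133, 139 and 129 TPM in moderate libraries, and 158 to 179.8 TPM in normal libraries. No other model overlaps it, and every severe library lay below every moderate and normal one. Its difference was -0.91 ± 0.08 without severe replicate 3 (limma adjusted p 0.0445) and -0.99 ± 0.11 with it (adjusted p 0.402). In 1 fit over all 9 libraries, severe replicate 3 included, the difference was -0.99 ± 0.10 (limma adjusted p 0.0449).

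Taken alone, each severe library was set against the mean of the 3 moderate libraries. A gene counted as past the fold when it lay at least 1 (log2) from that mean and outside the moderate range. With 1 library on that side this is a description with no test. Severe replicate 1 had 87 genes past the fold above (0.437%) and 50 below (0.251%). Severe replicate 2 had 22 above (0.111%) and 38 below (0.191%). Severe replicate 3 had 1265 above (6.36%) and 574 below (2.89%). For scale, a moderate library set against the mean of the other two was at least 1 away, with no condition on range, for 26 to 62 genes above and 20 to 53 below. By that same distance alone, severe replicate 1 had 89 above and 53 below, replicate 2 had 24 and 41, and replicate 3 had 1268 and 577. A mean of 2 libraries and a mean of 3 differ in error, so these counts are not strictly of 1 kind, but replicate 3 exceeded every moderate library many times over in both directions. The median absolute difference over all genes was 0.300 in severe replicate 3, against 0.121 and 0.124 in severe replicates 1 and 2 and 0.088 to 0.133 in moderate libraries.

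**Figure D2:**
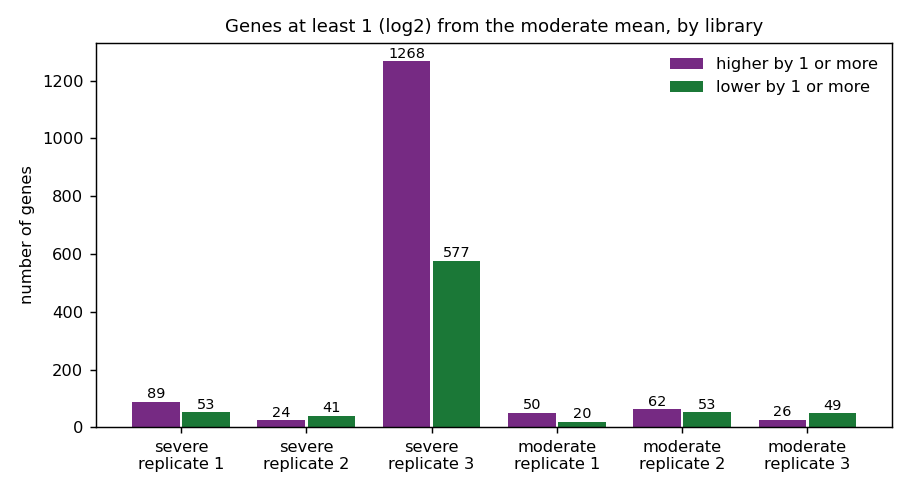
Number of genes at least 1 (log2(TPM + 1)) higher or lower than the moderate mean in each library. Each severe library is set against all 3 moderate libraries and each moderate library against the other two. Severe replicate 3 has 1268 higher and 577 lower genes, and no other library has over 89.

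Pairs of differences that share no library were also set against each other. Across the 19889 genes, the difference of severe replicate 1 from severe replicate 2 had a Pearson correlation of 0.324 with the difference of severe replicate 3 from the moderate mean, which uses none of the same libraries. The difference of moderate replicate 2 from moderate replicate 3 had a correlation of 0.202 with the difference of severe replicate 3 from the mean of severe replicates 1 and 2. The difference of moderate replicate 1 from the normal mean was set against the differences of severe replicates 1, 2 and 3 from the mean of moderate replicates 2 and 3, and the correlations were 0.037, -0.090 and 0.123. These were all 5 pairs computed. Genes are not independent replicates, all libraries share gene lengths and base composition, and these values are descriptions.

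The gene lists below hold 248 genes in 31 lists, of which 246 are in the tables and 204 were tested. No list member was called in either direction (0 of 204 by limma, against 0.0101% of all genes), and 19 of the 204 had an unadjusted p under 0.05. The smallest adjusted p of any member was 0.574. All 3 severe libraries lay above the moderate ones for 19 members and below them for 24, where the shares over all genes were 9.69% and 10.9%. Without severe replicate 3 the count of members called was also 0. In severe replicate 3 alone, 39 members were past the fold above (6.36% over all genes) and 30 below (2.89% over all genes), compared with 4 and 1 in severe replicate 1 and 1 and 0 in severe replicate 2.

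**Figure D3:**
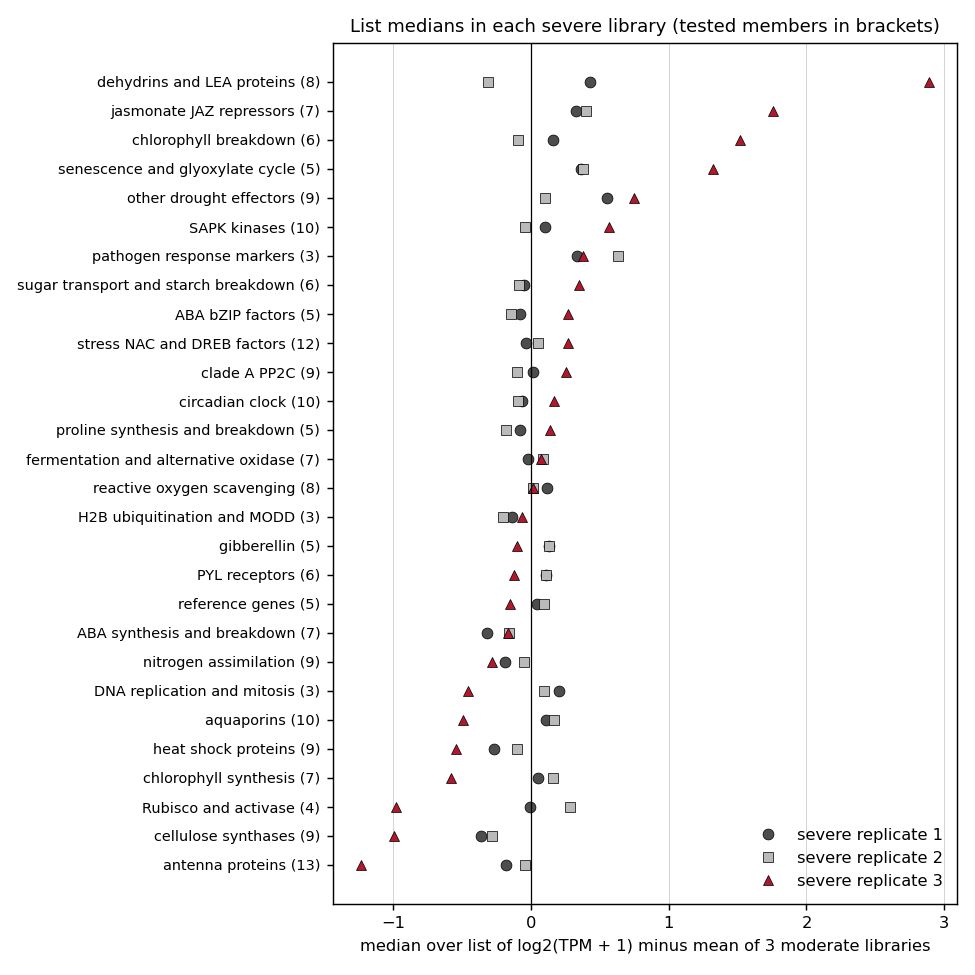
Median over the tested members of each list of log2(TPM + 1) in 1 severe library minus the mean of the 3 moderate libraries, for the 28 lists with at least 3 tested members. Severe replicate 3 ranges from -1.23 for antenna proteins to 2.89 for dehydrins and LEA proteins, whereas replicates 1 and 2 lie between -0.37 and 0.63.

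Dehydrins and LEA proteins, which protect membranes and proteins in drying cells, had a median difference of 1.02 over the 8 tested members of 10. The median was 0.43 in severe replicate 1, -0.31 in replicate 2 and 2.89 in replicate 3, against a median over all genes of 0.0068, -0.0024 and -0.014. RAB16A, a dehydrin of a tandem cluster on chromosome 11, had 597, 295 and 3198 TPM in severe libraries, against 363, 598 and 304 TPM in moderate libraries. Severe replicate 3 was 7.58 times the moderate mean, replicate 1 lay within the moderate range and replicate 2 just below it. The difference was 1.03 ± 0.85 (SE, n = 3 each, limma adjusted p 0.668). Under normal water RAB16A had 0.271, 1.91 and 1.33 TPM.

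RAB16B, its neighbour, had 126, 63.3 and 1129 TPM in severe libraries and 70.6, 92.4 and 51.4 TPM in moderate libraries. RAB16C had 35.9, 21.3 and 319 TPM in severe libraries and 23.2, 26.9 and 17.5 TPM in moderate libraries. For both genes replicate 2 lay within the moderate range, replicate 1 above it, and replicate 3 at 15.8 and 14.2 times the moderate mean. RAB16D, the lowest of the cluster, was at 0.676, 0.315 and 12.04 TPM in severe libraries and 0.154, 0.359 and 0.326 TPM in moderate libraries and was not tested. These 4 genes are similar in sequence, and the tables do not say how reads were shared among them.

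LIP9, a dehydrin gene outside the cluster, had 151, 81.6 and 717 TPM in severe libraries and 112, 97.7 and 97.01 TPM in moderate libraries. LEA3-1, a group 3 LEA gene, had 285, 183 and 1092 TPM in severe libraries and 244, 373 and 308 TPM in moderate libraries. In both, severe replicate 2 was the lowest of all 6 libraries and severe replicate 3 the highest. LOC_Os01g50910, on the same list, had 53.6, 33.6 and 424 TPM in severe libraries and 42.3, 48.6 and 39.9 TPM in moderate libraries, and 0, 0.270 and 0.307 TPM under normal water. Its difference was 1.06 ± 0.89 with all libraries and -0.033 without severe replicate 3. LEA3-2, another LEA gene, had 5.10, 4.52 and 6.23 TPM in severe libraries and 5.21, 4.53 and 8.18 TPM in moderate libraries, and the dehydrin gene RAB25 had 0.781, 0.797 and 2.33 TPM in severe libraries and 1.32, 0.766 and 1.07 TPM in moderate libraries. The groups of LEA3-2 and RAB25 overlapped, and neither gene was past the fold in severe replicate 3. Em, an LEA gene best known from seeds, was listed at 0.121, 0 and 1.30 TPM in severe libraries and at 0 in every moderate library.

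**Figure D4:**
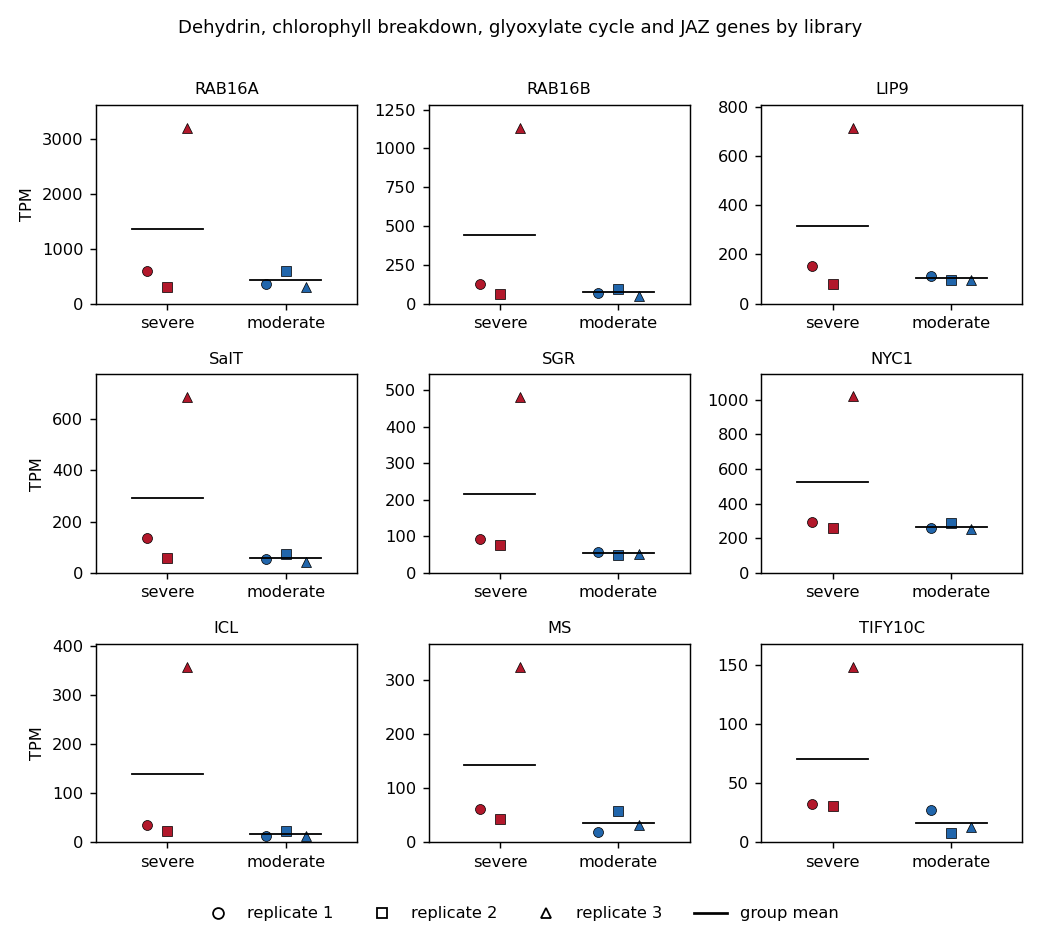
TPM of 9 genes of the dehydrin, drought effector, chlorophyll breakdown, glyoxylate cycle and JAZ lists in the 3 severe and 3 moderate libraries. Points are single libraries, with 1 symbol per replicate number, and lines are group means. In every panel severe replicate 3 is the highest library, and the other severe replicates lie much nearer the moderate range. The genes shown were chosen for this pattern, whereas LEA3-2 and ATG8A of the same lists are highest in another library.

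Other genes often used as markers of drought form a list of 9, all tested, of which 4 were past the fold above in severe replicate 3 (6.36% over all genes). The median difference was 0.52, with 0.55, 0.10 and 0.75 in severe replicates 1, 2 and 3. SalT, a lectin gene first known from salt stress, had 136, 56.9 and 686 TPM in severe libraries and 52.9, 73.9 and 42.5 TPM in moderate libraries, with 0.327, 0.782 and 0.499 TPM under normal water. Severe replicates 1 and 3 were above the moderate range and replicate 2 within it (limma difference 1.65 ± 0.85, adjusted p 0.592). LOC_Os11g06720, the most abundant of the list, had 5102, 4215 and 5851 TPM in severe libraries and 3903, 3470.5 and 3133 TPM in moderate libraries. Here all 3 severe libraries were above all moderate ones, with a difference of 0.52 ± 0.18 (limma adjusted p 0.579). LOC_Os01g72900 had 4.54, 2.45 and 107 TPM in severe libraries and 2.59, 2.28 and 1.81 TPM in moderate libraries, so that replicate 3 alone was 48.1 times the moderate mean. LOC_Os03g20120 had 129.5, 85.1 and 329.7 TPM in severe libraries and 88.5, 52.6 and 61.9 TPM in moderate libraries, and LOC_Os07g48830 had 105, 58.8 and 433 TPM in severe libraries and 68.0, 55.3 and 63.3 TPM in moderate libraries. In both, replicates 1 and 3 were above the moderate range and replicate 2 within it. LOC_Os02g33820 was highest in replicate 2, with 33.6, 39.0 and 26.72 TPM in severe libraries and 30.7, 19.6 and 32.1 TPM in moderate libraries.

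In the ABA pathway itself the differences were smaller. Of 6 tested PYL receptor genes, 5 had a 95% interval within 1 of 0, and the list's median difference was 0.06. PYL11, a receptor gene and the most abundant of the list, had 80.1, 75.9 and 139.7 TPM in severe libraries and 78.8, 73.5 and 72.7 TPM in moderate libraries, with replicate 3 above the others. LOC_Os03g18600, on this list, had 5.98, 6.17 and 3.17 TPM in severe libraries and 8.95, 8.46 and 7.43 TPM in moderate libraries, against 38.02, 29.8 and 31.2 TPM under normal water. All severe libraries lay below all moderate libraries (difference -0.64 ± 0.23, limma adjusted p 0.579). The other 4 tested members, LOC_Os02g13330, LOC_Os02g15640, LOC_Os06g36670 and LOC_Os10g42280, lay between -0.74 and 0.10 (log2) from the moderate mean in severe replicate 3.

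The clade A PP2C genes, whose products switch the pathway off, had a median difference of 0.05 over 9 tested members, 8 of them with a 95% interval within 1 of 0. PP2C51 had 61.7, 45.8 and 128 TPM in severe libraries and 49.5, 52.5 and 46.2 TPM in moderate libraries, and 0.595, 0.427 and 0.937 TPM under normal water. PP2C51 was the 1 member past the fold above in severe replicate 3, which 6.36% of all genes were (difference 0.52 ± 0.35, limma adjusted p 0.629). PP2C68 had 119.6, 108 and 204 TPM in severe libraries and 126, 112 and 107 TPM in moderate libraries. PP2C30 had 146, 143 and 236 TPM in severe libraries and 168, 157 and 149.9 TPM in moderate libraries. In these genes severe replicate 3 was again the highest of the 6 libraries, by 0.83 and 0.58 (log2) over the moderate mean. The remaining members differed less. PP2C06, PP2C08, PP2C09, PP2C49, PP2C50 and PP2C53 lay between -0.024 and 0.51 (log2) from the moderate mean in severe replicate 3, between -0.14 and 0.10 in replicate 1 and between -0.21 and -0.013 in replicate 2.

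Among the 10 SAPK kinase genes the median difference was 0.24, with 0.10, -0.045 and 0.57 in severe replicates 1, 2 and 3. SAPK1 had 32.3, 33.1 and 111 TPM in severe libraries and 31.7, 36.8 and 37.4 TPM in moderate libraries. SAPK9 had 19.5, 15.2 and 51.9 TPM in severe libraries and 13.1, 22.7 and 17.39 TPM in moderate libraries. For both, replicate 3 was past the fold and replicates 1 and 2 were within the moderate range. The difference of SAPK9 was 0.51 ± 0.45 (limma adjusted p 0.686) and -0.0054 without severe replicate 3. SAPK10 had 15.1, 14.6 and 20.9 TPM in severe libraries and 14.3, 13.8 and 13.0 TPM in moderate libraries, with all severe libraries higher. SAPK2, SAPK4 and SAPK6 were also highest in replicate 3, by 0.56, 0.64 and 0.82 (log2) over the moderate mean.

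Genes of ABA synthesis and breakdown had a median difference of -0.19 over 7 tested members. NCED3, encoding an enzyme of the committed step of ABA synthesis, had 17.8, 16.7 and 30.2 TPM in severe libraries and 16.7, 11.1 and 11.7 TPM in moderate libraries, and 1.13, 1.58 and 1.92 TPM under normal water. Its lowest severe library equalled the highest moderate library to 3 digits (difference 0.64 ± 0.26, limma adjusted p 0.583). ABA8ox3, an ABA 8′-hydroxylase gene that removes the hormone, had 13.8, 18.1 and 13.3 TPM in severe libraries and 20.5, 24.4 and 25.2 TPM in moderate libraries. All severe libraries lay below the moderate ones, with a difference of -0.61 ± 0.15 (limma adjusted p 0.574). ZEP, the zeaxanthin epoxidase gene, had 309, 333 and 328 TPM in severe libraries and 354, 351 and 404 TPM in moderate libraries, also without overlap. ABA8ox2, of the same enzyme family, had 14.8, 17.04 and 8.52 TPM in severe libraries and 20.8, 14.4 and 23.4 TPM in moderate libraries. ABA8ox1 had 17.2, 16.92 and 33.9 TPM in severe libraries and 21.5, 23.2 and 20.4 TPM in moderate libraries. Severe replicate 3 was the lowest library for ABA8ox2 and the highest for ABA8ox1. LOC_Os07g05940 had 7.92, 8.22 and 24.4 TPM in severe libraries and 13.5, 8.35 and 14.6 TPM in moderate libraries and was below the moderate range in replicates 1 and 2 and above it in replicate 3.

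The ABA bZIP factors had a median difference of -0.04, and all 5 tested members had a 95% interval within 1 of 0. bZIP23, an activator of drought genes, had 96.4, 95.5 and 118 TPM in severe libraries and 100.4, 79.9 and 96.6 TPM in moderate libraries, against 12.8, 13.2 and 18.9 TPM under normal water. TRAB1, another member of the family, had 46.0, 42.8 and 62.0 TPM in severe libraries and 50.3, 48.9 and 54.4 TPM in moderate libraries. LOC_Os06g10880 had 8.88, 9.31 and 10.6 TPM in severe libraries and 9.12, 11.1 and 11.1 TPM in moderate libraries. In these 3 genes the groups overlapped. LOC_Os09g28310 had 119, 119 and 92.3 TPM in severe libraries and 127, 122 and 130.2 TPM in moderate libraries, with all severe libraries below. LOC_Os01g64730 had 94.5, 76.4 and 168 TPM in severe and 89.9, 104 and 81.1 TPM in moderate libraries, and LOC_Os01g64000, with 0.564, 0.423 and 2.56 TPM in severe libraries and 0.378, 0.152 and 0.116 TPM in moderate libraries, was not tested.

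Of the 12 NAC and DREB transcription factor genes, 7 had a 95% interval within 1 of 0, and the median difference was 0.11. LOC_Os03g21060 had 37.2, 29.5 and 225 TPM in severe libraries and 24.2, 15.1 and 20.8 TPM in moderate libraries, and 7.06, 6.90 and 8.93 TPM under normal water. All severe libraries were above all moderate ones, by 0.89, 0.56 and 3.45 (log2) in replicates 1, 2 and 3 (limma adjusted p 0.583). DREB1C had 4.65, 4.20 and 23.5 TPM in severe libraries and 4.27, 4.18 and 3.41 TPM in moderate libraries, and DREB2A had 8.85, 7.23 and 23.2 TPM in severe libraries and 9.68, 8.19 and 8.81 TPM in moderate libraries. Both encode activators that bind dehydration response elements. Severe replicate 3 was far above the moderate range in both, and of the other severe libraries only replicate 1 of DREB1C was above it at all. DREB1B, of the same family, had 1.36, 2.13 and 1.21 TPM in severe libraries and 5.25, 5.97 and 1.93 TPM in moderate libraries with severe replicates 1 and 3 below all moderate ones (difference -0.99 ± 0.35, limma adjusted p 0.579). NAC3 had 13.3, 13.9 and 8.22 TPM in severe libraries and 16.89, 14.8 and 16.98 TPM in moderate libraries, every severe library being below the moderate range.

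Heat shock proteins are chaperones that keep other proteins from clumping, and their genes had a median difference of -0.17 over 9 tested members. HSP24.1, a small heat shock protein gene, had 13.3, 12.2 and 3.96 TPM in severe libraries and 19.6, 15.7 and 21.7 TPM in moderate libraries. HSP17.4, of the same family, had 20.3, 19.6 and 12.3 TPM in severe libraries and 23.7, 27.7 and 26.2 TPM in moderate libraries. All severe libraries lay below all moderate libraries for both, and replicate 3 was the lowest (differences -1.02 ± 0.41 and -0.57 ± 0.19, limma adjusted p 0.583 and 0.579). HSP101, a chaperone that dissolves protein aggregates, had 1.23, 1.41 and 1.49 TPM in severe libraries and 0.948, 0.843 and 1.201 TPM in moderate libraries, with all severe libraries above. HSP16.9A, another small heat shock gene, had 31.4, 45.2 and 36.7 TPM in severe libraries and 40.8, 64.3 and 60.4 TPM in moderate libraries, and HSP16.9B had 4.61, 4.51 and 9.06 TPM in severe libraries and 3.72, 5.15 and 3.74 TPM in moderate libraries. HSP16.9B was highest in severe replicate 3, and HSP16.9A overlapped between the groups.

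Photosynthesis genes were low in severe replicate 3. Antenna proteins, which hold chlorophyll and feed light energy to the photosystems, had a median difference of -0.51 over 13 tested members, with -0.18, -0.04 and -1.23 in severe replicates 1, 2 and 3. None of the 13 was positive, and 11 were past the fold below in replicate 3 (2.89% over all genes). CAB1R, the most abundant, had 7269.8, 7705 and 3997 TPM in severe libraries and 8941, 10422 and 9459 TPM in moderate libraries. All severe libraries lay below the moderate ones (difference -0.66 ± 0.28, limma adjusted p 0.583). RCABP89, a gene of the same light-harvesting family, had 2084, 2295 and 931 TPM in severe libraries and 2387, 2285 and 2417 TPM in moderate libraries, and CAB2R had 1223, 1202 and 669 TPM in severe libraries and 1376, 1219.5 and 1600.0 TPM in moderate libraries. In both, severe replicate 3 was far below the moderate range, and replicates 1 and 2 were within it or just under it. The farthest member was LOC_Os04g38410, with 516, 598 and 139 TPM in severe libraries and 629, 512 and 577 TPM in moderate libraries, a difference of -2.03 (log2) for replicate 3 alone. LOC_Os11g13890 had 1080.5, 1266 and 307 TPM in severe libraries and 1187, 1011 and 1250.1 TPM in moderate libraries. Its difference of -0.61 ± 0.53 was 0.031 without severe replicate 3.

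The summed TPM of the antenna list was 27483, 29338 and 13169 in severe and 32036, 31000.0 and 33989 in moderate libraries. The difference of the log2 sums was -0.56 with all libraries and -0.19 without severe replicate 3. An exact permutation test of the log2 sums gave a two-sided p of 0.1. This is the smallest p that 3 against 3 libraries allow, so no list sum could have reached 0.05, and the test decides nothing here. It was run on 30 lists, of which 8 stood at that p, with a smallest Benjamini-Hochberg adjusted value of 0.375.

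RCA, encoding the activase that reopens Rubisco, had 2075, 2629 and 929 TPM in severe libraries and 2207, 1706 and 2359.5 TPM in moderate libraries. Severe replicate 2 was the highest of the 6 libraries and replicate 3 the lowest. The other 3 tested members of the Rubisco and activase list, LOC_Os12g17600, LOC_Os12g19381 and LOC_Os12g19470, were at -1.50, -0.80 and -0.59 (log2) from the moderate mean in replicate 3 and at 0.19, 0.35 and 0.23 in replicate 2. Rubisco small subunit genes are near-identical copies, between which reads may be split. Chlorophyll synthesis genes had a median difference of -0.16 over 7 members, with 0.052, 0.16 and -0.58 by replicate. PORB, the light-dependent protochlorophyllide reductase gene of green leaves, had 319, 305 and 158 TPM in severe libraries and 430.1, 438 and 399 TPM in moderate libraries, with every severe library below (difference -0.76 ± 0.28, limma adjusted p 0.580). CHLH, a magnesium chelatase subunit gene, had 118, 127 and 43.9 TPM in severe libraries and 119.7, 102 and 120.3 TPM in moderate libraries. Replicate 3 was below the moderate range, and replicate 2 above it. PORA, the reductase gene best known from dark-grown seedlings, had 20.2, 20.1 and 39.1 TPM in severe libraries and 20.5, 19.4 and 13.7 TPM in moderate libraries and was highest in replicate 3. CAO1, the chlorophyll b synthesis gene, had 145, 156 and 75.1 TPM in severe libraries and 122, 169 and 133 TPM in moderate libraries, and CHLG, the chlorophyll synthase gene, had 84.7, 89.8 and 59.8 TPM in severe libraries and 79.6, 57.1 and 66.1 TPM in moderate libraries.

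**Figure D5:**
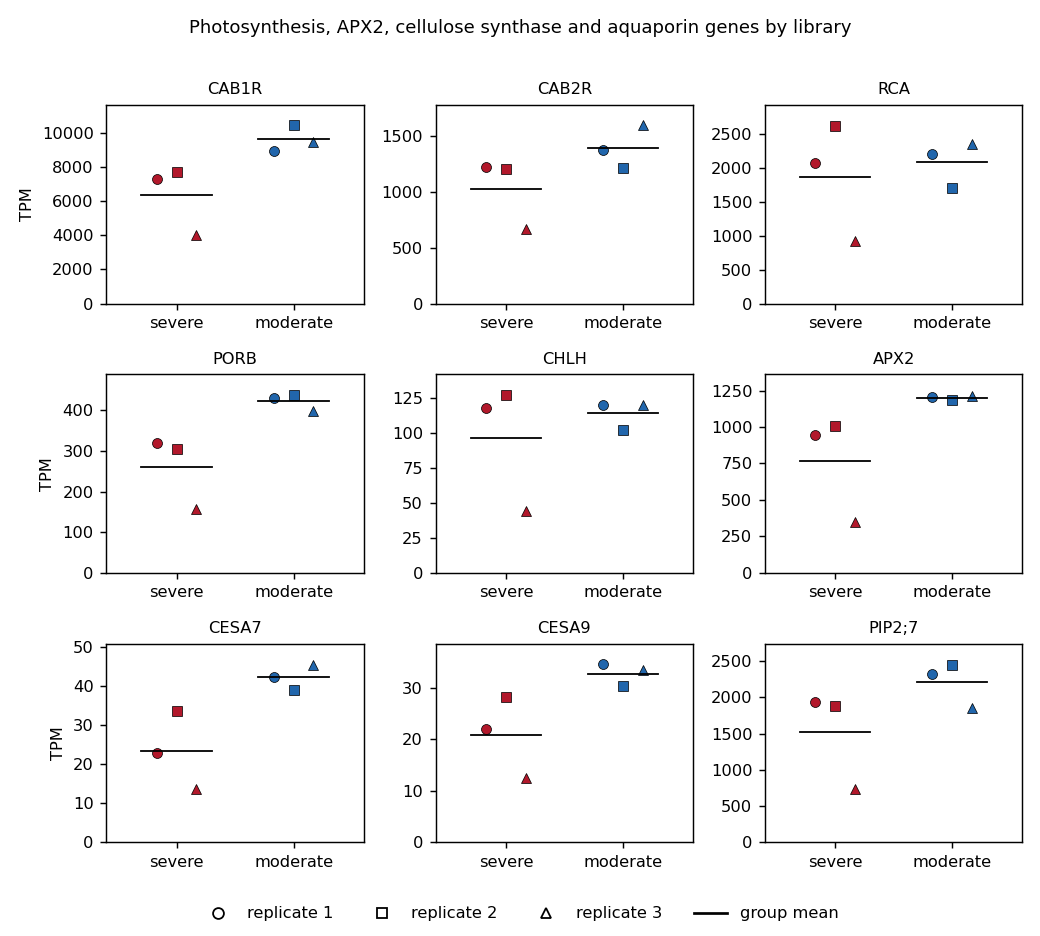
TPM of 9 genes for photosynthesis, hydrogen peroxide removal (APX2), cellulose synthesis and water transport in the 3 severe and 3 moderate libraries. Points are single libraries, with 1 symbol per replicate number, and lines are group means. Severe replicate 3 is the lowest library in every panel. The genes shown were chosen for this pattern, whereas PORA and CatB of the same lists are highest in that library.

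Chlorophyll breakdown genes were high in severe replicate 3. The list's median difference was 0.57 over all 6 members, with 0.16, -0.098 and 1.51 in replicates 1, 2 and 3, and 4 members were past the fold above in replicate 3 (6.36% over all genes). SGR, the stay-green gene whose product removes magnesium from chlorophyll, had 91.2, 74.7 and 480.5 TPM in severe libraries and 57.1, 49.3 and 52.6 TPM in moderate libraries. All severe libraries were above the moderate ones, by 0.77, 0.49 and 3.16 (log2) (difference 1.47 ± 0.68, limma adjusted p 0.583). NYC1, a chlorophyll b reductase gene, had 296, 258 and 1022 TPM in severe libraries and 260.0, 286 and 255 TPM in moderate libraries, against 549, 634 and 559 TPM under normal water. NOL, the partner of NYC1, had 49.3, 47.0 and 123.1 TPM in severe libraries and 43.6, 43.1 and 39.9 TPM in moderate libraries. NOL groups did not overlap, whereas NYC1 was outside the moderate range only in severe replicates 1 and 3. RCCR1, the red chlorophyll catabolite reductase gene, had 169, 147 and 311 TPM in severe libraries and 145, 208 and 174 TPM in moderate libraries. LOC_Os06g24730 had 229, 184 and 581 TPM in severe libraries and 198, 213 and 202 TPM in moderate libraries, and LOC_Os03g05310 had 125, 115 and 236 TPM in severe libraries and 119.8, 159 and 135 TPM in moderate libraries. In these 3 genes severe replicate 3 was the highest library.

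Genes of senescence and the glyoxylate cycle, which lets cells make sugars from fatty acids, had a median difference of 0.67 over 5 members, all positive. ICL, isocitrate lyase, had 35.2, 22.2 and 357 TPM in severe libraries and 12.6, 22.1 and 12.3 TPM in moderate libraries, with 0.146, 0.637 and 0.284 TPM under normal water. All severe libraries exceeded the moderate ones, replicate 2 only just, and replicate 3 was 22.8 times the moderate mean (difference 2.06 ± 1.00, limma adjusted p 0.592). MS, malate synthase, the next enzyme of the cycle, had 61.3, 41.9 and 325 TPM in severe libraries and 17.97, 58.2 and 31.2 TPM in moderate libraries. Its severe replicate 2 lay within the moderate range. The autophagy genes ATG8A, ATG8B and ATG8C, whose products coat the autophagosome, had all severe libraries above all moderate libraries (9.69% over all genes). ATG8A had 197, 335 and 265 TPM in severe libraries and 169, 169.8 and 166 TPM in moderate libraries, with replicate 2 the highest (difference 0.62 ± 0.19, limma adjusted p 0.574). ATG8B had 94.6, 92.4 and 184 TPM in severe libraries and 79.0, 66.6 and 74.4 TPM in moderate libraries. ATG8C had 312, 303 and 416 TPM in severe libraries and 268, 250.3 and 267 TPM in moderate libraries. Under normal water ATG8B was at 152, 156 and 154 TPM and ATG8C at 363, 353 and 363 TPM, both above every moderate library. ATG8A had 273, 156 and 281 TPM there.

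Nitrogen assimilation genes differed among themselves in severe replicate 3. GS1;2, a cytosolic glutamine synthetase gene, had 40.0, 42.6 and 113 TPM in severe libraries and 33.6, 33.7 and 30.7 TPM in moderate libraries, with every severe library above (difference 0.81 ± 0.39, limma adjusted p 0.592). GS2, the plastid enzyme's gene, had 544, 642 and 337 TPM in severe libraries and 665, 522 and 683 TPM in moderate libraries. Fd-GOGAT, its partner glutamate synthase, had 454, 506 and 317 TPM in severe libraries and 565, 478 and 687 TPM in moderate libraries. For both plastid genes replicate 3 was the lowest library. LOC_Os01g25484, on this list, had 129, 135 and 77.8 TPM in severe libraries and 157, 159 and 192 TPM in moderate libraries, with every severe library below. LOC_Os03g18130 had 14.0, 4.98 and 31.3 TPM in severe libraries and 2.77, 11.5 and 4.08 TPM in moderate libraries, a spread of several fold within each group. The list's median difference was -0.14 over 9 members.

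Proline synthesis was represented by P5CS1 and P5CS2, genes for the first enzyme of the pathway. P5CS1 had 91.8, 86.0 and 108 TPM in severe libraries and 93.2, 110.2 and 100.8 TPM in moderate libraries, with overlapping groups. P5CS2 had 7.11, 6.57 and 39.4 TPM in severe libraries and 6.88, 7.21 and 6.55 TPM in moderate libraries. Only replicate 3 departed, and the difference of 0.78 ± 0.63 (limma adjusted p 0.666) was -0.0073 without it. OAT, ornithine aminotransferase, had 74.1, 67.5 and 171 TPM in severe libraries and 66.1, 95.3 and 76.0 TPM in moderate libraries and was likewise highest in replicate 3.

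Among sugar transport genes, SUT1, a sucrose loader of the phloem, had 132, 131 and 139 TPM in severe libraries and 121, 107 and 118 TPM in moderate libraries, all severe values being higher. SWEET13, a sucrose exporter, had 65.1, 55.1 and 126 TPM in severe libraries and 57.5, 51.6 and 45.6 TPM in moderate libraries, and 1.32, 1.64 and 1.43 TPM under normal water. Replicate 3 stood above the rest (difference 0.57 ± 0.30, limma adjusted p 0.593). SUS1, a sucrose synthase gene, had 49.8, 63.1 and 16.7 TPM in severe libraries and 48.7, 52.8 and 53.4 TPM in moderate libraries, and was lowest in replicate 3 and highest in replicate 2. SWEET14, from the family of SWEET13, had 3.55, 3.52 and 3.58 TPM in severe libraries and 3.42, 2.22 and 2.29 TPM in moderate libraries, all severe values being higher. In respiration, AOX1a, an alternative oxidase that bypasses part of the mitochondrial electron chain, had 27.2, 29.5 and 88.0 TPM in severe libraries and 22.4, 24.4 and 26.8 TPM in moderate libraries. All severe libraries were above the moderate ones (difference 0.74 ± 0.43, limma adjusted p 0.608), and the fermentation gene ADH1, with 81.6, 74.1 and 108 TPM in severe libraries and 95.7, 111 and 82.4 TPM in moderate libraries, had overlapping groups.

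Aquaporins, the water channels of the plasma membrane (PIP) and vacuole (TIP), had a median difference of -0.10 over 10 tested members, 8 of them with a 95% interval within 1 of 0. PIP2;7, the most abundant, had 1937, 1881 and 734 TPM in severe libraries and 2329.5, 2453 and 1853 TPM in moderate libraries. TIP1;1 had 227, 256 and 92.4 TPM in severe libraries and 232, 183 and 197 TPM in moderate libraries. Both were past the fold below in replicate 3, with severe replicate 2 of TIP1;1 the highest of the 6 libraries. PIP2;2 had 68.7, 75.2 and 31.2 TPM in severe libraries and 68.1, 47.8 and 58.4 TPM in moderate libraries, with replicates 1 and 2 above the moderate range and replicate 3 below it. PIP1;2 had 544, 541 and 476 TPM in severe libraries and 465, 422 and 424 TPM in moderate libraries, and here all severe libraries were the higher ones.

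Scavengers of reactive oxygen had a median difference of 0.12 over 8 members. APX2, a cytosolic ascorbate peroxidase gene, had 945, 1004 and 348 TPM in severe libraries and 1203, 1188 and 1216 TPM in moderate libraries, whose values were close together. Every severe library lay below them, at -0.35, -0.26 and -1.79 (log2) from the moderate mean (difference -0.80 ± 0.41, limma adjusted p 0.592). CatB, a catalase gene, had 162, 144 and 398 TPM in severe libraries and 121, 149 and 136 TPM in moderate libraries, whereas CatA had 450.5, 435 and 281 TPM in severe libraries and 306, 325 and 262 TPM in moderate libraries. CatB was high in replicate 3, and CatA was high in replicates 1 and 2 and within the moderate range in replicate 3. The superoxide dismutase gene SODCC2 had 745, 655 and 1137 TPM in severe libraries and 635, 821 and 578 TPM in moderate libraries.

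JAZ repressors, proteins that hold jasmonate responses in check and whose genes are themselves switched on by jasmonate, had a median difference of 0.82 over 7 tested members, all positive. The medians were 0.33, 0.40 and 1.76 in severe replicates 1, 2 and 3. TIFY10C had 32.0, 30.6 and 148 TPM in severe libraries and 27.3, 7.70 and 13.0 TPM in moderate libraries. All severe libraries were above the moderate ones, by 1.13, 1.07 and 3.30 (log2), and moderate replicate 1 was the highest of its group (difference 1.83 ± 0.71, limma adjusted p 0.583). TIFY11B had 26.6, 18.5 and 150.2 TPM in severe libraries and 18.8, 10.3 and 11.6 TPM in moderate libraries. TIFY11D had 33.6, 35.8 and 93.8 TPM in severe libraries and 40.4, 19.1 and 25.4 TPM in moderate libraries. LOC_Os03g08330 had 14.0, 14.3 and 43.2 TPM in severe libraries and 18.8, 5.09 and 9.26 TPM in moderate libraries. In these 3 genes severe replicate 3 was the highest library and the groups overlapped. TIFY10A, TIFY10B and TIFY3, the more abundant members, differed by at most 0.41 (log2) from the moderate mean in any severe library. TIFY11A, at 0.975, 0.224 and 9.23 TPM in severe and 0.617, 0.0963 and 0.199 TPM in moderate libraries, was not tested.

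Cellulose synthases spin the main polymer of the cell wall as cells grow and as vessels thicken. Cellulose synthase genes had a median difference of -0.55 over 9 members, none positive, with -0.37, -0.28 and -0.998 by replicate, and 6 of the 9 had all severe libraries below all moderate ones (10.9% over all genes). CESA7, of the complex that builds secondary walls, had 22.8, 33.6 and 13.7 TPM in severe libraries and 42.2, 38.9 and 45.4 TPM in moderate libraries, against 3.36, 3.30 and 2.59 TPM under normal water. CESA4 had 23.3, 32.0 and 13.0 TPM in severe libraries and 36.3, 33.0 and 33.3 TPM in moderate libraries, and CESA9 had 21.9, 28.1 and 12.4 TPM in severe libraries and 34.6, 30.3 and 33.3 TPM in moderate libraries. These 3 secondary wall genes were highest in moderate libraries, intermediate in severe libraries and lowest under normal water (differences -0.91 ± 0.30, -0.65 ± 0.30 and -0.70 ± 0.28, limma adjusted p 0.579, 0.583 and 0.583). CESA5, a primary wall gene, had 5.32, 5.17 and 3.29 TPM in severe libraries and 7.42, 8.51 and 6.29 TPM in moderate libraries, and CESA6 had 6.71, 7.10 and 4.01 TPM in severe libraries and 9.63, 9.01 and 8.22 TPM in moderate libraries, both without overlap. CESA1 had 22.5, 25.0 and 12.5 TPM in severe libraries and 30.0, 29.6 and 23.9 TPM in moderate libraries, with overlapping groups.

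GA20ox2, a gibberellin synthesis gene known for semi-dwarf rice, had 8.65, 14.1 and 3.60 TPM in severe libraries and 9.42, 6.88 and 17.6 TPM in moderate libraries, and SLR1, the DELLA repressor of gibberellin responses, had 47.1, 44.6 and 43.1 TPM in severe libraries and 43.5, 50.1 and 45.5 TPM in moderate libraries. GA20ox2 was lowest in replicate 3, and SLR1 was 0.026, -0.053 and -0.10 (log2) from the moderate mean in replicates 1, 2 and 3. Of 12 DNA replication and mitosis genes only PCNA, MCM2 and CDKB1;1 were tested, PCNA with 16.6, 15.1 and 10.2 TPM in severe and 15.5, 12.7 and 14.5 TPM in moderate libraries. Their groups overlapped. Ethylene synthesis genes ACS1 and ACS2 did not reach the minimum in 3 libraries, although ACS2 had 0.688, 0.806 and 5.18 TPM in severe libraries and 0.452, 0.434 and 0.285 TPM in moderate libraries, and ACO1 had 6.35, 4.90 and 4.41 TPM in severe and 5.45, 6.85 and 7.31 TPM in moderate libraries.

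Clock genes had a median difference of 0.0050 over 10 members, 9 of them with a 95% interval within 1 of 0. GI, a clock gene that peaks late in the day, had 517, 493 and 533 TPM in severe libraries and 515, 501 and 557 TPM in moderate libraries. LHY, a dawn gene, had 14.3, 15.4 and 27.0 TPM in severe libraries and 16.4, 15.8 and 15.2 TPM in moderate libraries, and PRR1 had 75.5, 71.0 and 96.3 TPM in severe libraries and 65.7, 68.6 and 63.3 TPM in moderate libraries. PCL1, an evening gene, had 31.8, 29.0 and 97.4 TPM in severe libraries and 26.8, 46.4 and 27.4 TPM in moderate libraries, against 303, 340.1 and 352 TPM under normal water. Severe replicate 3 was the highest of the 6 libraries for LHY, PRR1 and PCL1 and within the moderate range for GI.

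The reference genes had a median difference of -0.03 over 5 members, all with a 95% interval within 1 of 0. ACT1, actin, had 65.3, 71.3 and 79.8 TPM in severe libraries and 76.8, 80.6 and 67.8 TPM in moderate libraries. REFA1, a translation elongation factor gene, had 479.9, 494 and 389 TPM in severe libraries and 483, 482 and 425 TPM in moderate libraries. GAPDH, of glycolysis, had 319, 322 and 224 TPM in severe libraries and 350.0, 419.5 and 317 TPM in moderate libraries, and LOC_Os01g22490 and LOC_Os02g06640 lay -0.16 and 0.27 (log2) from the moderate mean in replicate 3. GAPDH was lowest in severe replicate 3, at -0.68 (log2), and the other reference genes stayed within 0.27 of the moderate mean in every severe library.

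The machinery of histone H2B monoubiquitination (H2Bub1), the mark this series measures on chromatin, was nearly level. HUB1 and HUB2 encode ubiquitin ligases that together place the mark on histone H2B, a mark found along transcribed genes. HUB1 had 43.1, 41.2 and 45.5 TPM in severe libraries and 48.6, 42.7 and 51.9 TPM in moderate libraries, with overlapping groups (difference -0.14 ± 0.10, 95% interval -0.38 to 0.11, limma adjusted p 0.650). HUB2 had 38.1, 39.1 and 42.8 TPM in severe libraries and 45.02, 43.3 and 49.4 TPM in moderate libraries, and 55.0, 53.6 and 58.4 TPM under normal water. Every severe library of HUB2 lay below every moderate library, by a difference of -0.19 ± 0.09 (95% interval -0.42 to 0.031, limma adjusted p 0.592). MODD, whose product deactivates an ABA bZIP factor and promotes its breakdown, had 12.8, 9.59 and 29.1 TPM in severe libraries and 10.4, 11.4 and 10.1 TPM in moderate libraries. Severe replicate 3 was the highest by 1.37 (log2) over the moderate mean (difference 0.50 ± 0.37, limma adjusted p 0.649).

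H2Bub1 was compared by the authors between each drought and normal water, and both of their comparisons share the normal samples. The authors' deposited table for severe drought lists 886 regions, 93 higher and 793 lower than under normal water, and that for moderate drought 1395 regions, 224 higher and 1171 lower. Each lists regions with a false discovery rate (FDR) under 0.05 only, and holds 1 value per region. Regions assigned to 7 genes of the lists stand in the severe table and to 11 in the moderate table. In the authors' deposited table for severe drought, the region listed for HUB2 had a log2 fold change of -1.05 (FDR 4.51e-05), and the moderate table lists none there. At bZIP23, the deposited tables give -1.17 for severe drought (chromosome 2, 32280132 to 32280631, FDR 0.0173) and 1.49 for moderate drought (32280076 to 32280575, FDR 1.08e-09), in overlapping regions. The authors' annotation calls these HUB2 and bZIP23 regions promoter (1-2kb), but each lies inside its gene model. The RNA of bZIP23, given above, had overlapping groups in severe and moderate drought. At CESA1 the deposited tables give -1.22 for severe and -1.32 for moderate drought, in regions whose ends overlap.

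Of the list genes in either table, all but bZIP23 and CESA1 stand in only 1. The authors' deposited table for moderate drought gives log2 fold changes of 6.44 at PP2C51, 4.1 at PP2C30 and 4.31 at SGR against normal water, and lists no region for them under severe drought. The same deposited table gives 1.15 at OAT, -1.06 at SAPK1, -1.44 at PDC2, -1.79 at CESA3, -1.25 at LOC_Os02g15640 and -1.1 at LOC_Os02g52650. The authors' deposited table for severe drought gives -1.12 at PP2C06, -1.59 at PP2C08, -1.72 at TIFY10A and -1.83 at CESA2, and the moderate table lists none of these. A gene missing from a table may have passed no threshold or have had no region, so its absence gives no value. Whether H2Bub1 differed between severe and moderate drought was not tested, and no H2Bub1 value of a single severe library was used here to set beside replicate 3.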

How the data were processed

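RNA was measured by sequencing in 3 severe, 3 moderate and 3 normal libraries. The deposited tables give, per the file headers, TPM, FPKM and mean coverage per gene with coordinates. Aligned bases were implied from the largest ratio of deposited coverage to FPKM among genes above a minimum FPKM. The submitters' processing notes list DESeq2 1.20.0, HISAT2 2.0.5, MACS2 2.1.1 and Bowtie2 2.3.4, with no role. Sources used here give neither the genome build nor whether reads were counted by strand. The H2Bub1 log2 fold changes and FDR (adjusted p-values) were copied from the authors' deposited tables.

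TPM were matched on gene ID and taken as log2(TPM + 1), which understates the change of low genes, for genes that reached 1 TPM in 3 or more of the 6 libraries. Severe was set against moderate with limma 3.58.1 (R 4.3.3, mean-variance trend, robust variance estimates, no block, two-sided, Benjamini-Hochberg threshold 0.05). The fit was tested on simulated data in which every library had the scatter of the moderate group. No simulated library stood apart, so its performance with a library like severe replicate 3 was not tested. Tables and figures used Python 3.11.15, pandas 2.3.3 and matplotlib 3.10.9. Where an adjusted p is printed for a single gene it is limma's.

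The members and lists were chosen with earlier results of these data known. Names of 179 of 248 list genes matched a RefSeq symbol on the same chromosome and in the same order, and other genes go by ID. Named genes were drawn, per list, from up to 6 with the largest difference and up to 4 farthest from the moderate mean in severe replicate 3. All members of 6 short lists were added. So were the 10 list members with a symbol, per direction, with the largest gap between severe replicate 3 and the other severe replicates. Not every gene picked by these rules is named, and LOC_Os04g51160 and LOC_Os07g37240 are among those left out. CAB2R, GI, TIFY3, TIFY11A, Lsi2, IRT1, NRT2.1, OSH1, LOC_Os07g03710, ACS1 and ACS2 fall outside these rules and were named after their values were seen. Alternatives were another pseudocount, filter, scaling, unit, weighting, library set and block, and leaving out each replicate.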

Additional observations from a re-analysis of the deposited data

How the results depend on the processing

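Genes called by limma numbered 2 higher and 0 lower. The higher count was 1 with no filter on low values, 1 with the replicate number as a block, 0 among genes whose model overlaps no other (an alternative chosen after seeing the data) and 1 to 4 when each replicate was left out in turn. The lower count was 1 in the fit over all 9 libraries (LOC_Os08g02210) and 0 to 1 when each replicate was left out. Limma's array weights called 1985 higher and 2307 lower of 19889 genes, and 50 of 204 list members. That fit gave severe replicate 3 a weight of 0.08, severe replicate 1 a weight of 19.8, and did not converge. No result about the lists is drawn from it. Whether replicate numbers pair the samples is not given in the labels. Same-numbered severe and moderate libraries deviated from their group means with correlations of 0.098, -0.26 and -0.14. These values cannot decide it, because deviations from a shared group mean depend on each other. The block lost the call of LOC_Os07g13969 (adjusted p 0.291) and changed no other.

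Counts for single libraries moved with the pseudocount. At 0.1, severe replicate 1 had 162 genes past the fold above and 127 below, severe replicate 2 had 72 and 105, and severe replicate 3 had 965 below. Severe replicate 1 had 52 above with a filter of 5 TPM and 30 below on FPKM. When each moderate replicate was left out, severe replicate 2 had 16 to 49 above and 44 to 63 below. The differences of 4 of 66 single genes compared changed sign without severe replicate 3. Leaving out each replicate gave -0.033 to 1.77 for LOC_Os01g50910, -0.0054 to 0.85 for SAPK9, -0.99 to 0.031 for LOC_Os11g13890 and -0.0073 to 1.201 for P5CS2. Of the 204 list members tested, 53 changed sign without severe replicate 3, 44 under array weights and 0 to 17 under the others. List medians moved by more than the standard deviation of the 3 severe libraries' own list medians in 15 of 448 comparisons. Severe replicate 3 itself widens that spread, so this count cannot show whether list medians depend on that library. Changes of sign were not counted for list medians. The cause of these shifts was not tested. No read counts were used, so depth per gene is not known beyond the implied aligned bases.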
